A study of Mus musculus with 12 samples.

Results

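The interferon-stimulated genes described here are 44 genes whose transcription cells raise when interferon binds its receptors. They were taken by exact gene symbol from a list of names that was drawn up with earlier results of these data known, and all 44 were found among the 49997 genes counted. The measurements are RNA-seq read counts from sorted mouse thymocytes in which the gene for SATB1, a nuclear protein that shapes the genome of T cells, was deleted on tamoxifen treatment (Satb1 KO) or left intact (WT). DP KO, DP WT, CD4 KO and CD4 WT hold 3 libraries each, 12 in all, from primary cells of the thymus. DP thymocytes display CD4 and CD8 together, and CD4 thymocytes have matured further and display CD4 without CD8. Tamoxifen is the labelled treatment of every library, WT included, and each library carries a batch number equal to its replicate number. The sources used here give no recombinase or promoter, no age or strain of the mice and no sorting gates. Nothing in the labels ties replicates to separate mice, and the p-values rest on a spread between libraries that may be technical in part.

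Type I interferons signal through a receptor with the kinases JAK1 and TYK2, which act on STAT2 among others. STAT2 and IRF9 are parts of the complex ISGF3, which binds the interferon-stimulated response element, while interferon gamma acts on the gamma-activated site. The genes switched on this way encode sensors of foreign nucleic acid, enzymes and binding proteins that block viral growth, and factors that amplify or end the signal. In the mouse thymus, maturing single-positive thymocytes are known to respond to interferon made within the organ.

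Short promoter stretches are shown because they hold the element through which the signal acts, and to set members with close copies side by side at this element. RefSeq windows on GRCm38.p6, from 250 bases before to 50 bases after a start site, were found for 32 of the 44 genes. The core of the response element, GAAA followed by any 2 bases and a further GAAA, was searched on both strands. It was present in 16 of these 32 genes (50%), against 3.99% of the 27025 genes with a window. TTCNNNGAA, the gamma-activated site, which reads the same on both strands, was present in 6 of the 32 genes (18.75%), against 9.55% of all genes. The stretches below are written 5′ to 3′ on the strand of the gene, with the motif in capitals, or its complement where it lies on the other strand; neighbouring matches overlap in the longer runs of capitals. They come from the ubiquitin-like modifier gene Isg15 (chr4:156200850-156200921, minus strand), the sensor gene Ifih1 (chr2:62646206-62646248, minus strand), the synthetase genes Oas3 (chr5:120777700-120777759, minus strand), Oas1a (chr5:120907505-120907570, minus strand) and Oas1g (chr5:120887591-120887656, minus strand), the Ifit3 pair (chr19:34583348-34583441 and chr19:34607744-34607837, plus strand), the GTPase genes Irgm1 (chr11:48871410-48871475, minus strand) and Gbp2 (chr3:142620579-142620638, plus strand), and the signal factor gene Stat2 (chr10:128270251-128270310, plus strand).
Isg15: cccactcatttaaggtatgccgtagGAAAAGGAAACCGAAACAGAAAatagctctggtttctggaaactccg
Ifih1: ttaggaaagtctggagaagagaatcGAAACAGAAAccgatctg
Oas3: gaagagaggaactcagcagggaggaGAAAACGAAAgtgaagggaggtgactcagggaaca
Oas1a: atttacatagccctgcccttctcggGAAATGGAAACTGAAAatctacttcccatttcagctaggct
Oas1g: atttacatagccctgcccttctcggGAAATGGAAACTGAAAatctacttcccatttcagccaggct
Ifit3: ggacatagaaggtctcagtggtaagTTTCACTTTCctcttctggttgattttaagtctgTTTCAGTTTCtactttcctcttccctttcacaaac
Ifit3b: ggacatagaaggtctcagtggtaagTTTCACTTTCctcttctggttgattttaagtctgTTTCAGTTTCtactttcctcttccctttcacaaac
Irgm1: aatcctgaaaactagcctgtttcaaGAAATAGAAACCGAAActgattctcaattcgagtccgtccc
Gbp2: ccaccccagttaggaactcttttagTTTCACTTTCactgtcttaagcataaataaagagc
Stat2: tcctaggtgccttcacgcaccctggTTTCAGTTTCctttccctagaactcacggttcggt
The Ifit3 and Ifit3b stretches were identical over all 94 bases, and those of Oas1a and Oas1g at 65 of 66 bases. This does not show how far reads of their transcripts can be told apart, for which shared stretches of transcript are given below. A match is a run of letters and does not show that a factor binds there. Of the 16 genes with this core in the window, 10 were called higher in DP KO than in DP WT and 5 lower in CD4 KO than in CD4 WT. Of the 16 without it, 7 were called higher in DP and 12 lower in CD4, and these differences between the groups of genes were not tested.

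The deepest library, CD4 KO replicate 2, had 62422640 counts, and the shallowest, DP WT replicate 3, had 22790504. Satb1 itself had 2495, 2873 and 2455 CPM in DP KO replicates 1 to 3, against 3888, 3832 and 3872 CPM in DP WT. The CD4 KO libraries had 1481, 1545 and 1469 CPM of Satb1, against 3513, 3299 and 2999.9 CPM in CD4 WT, so the labels fit the targeted gene, and transcripts of the gene were still counted in KO cells. CPM (library-size-scaled counts) were computed with the trimmed mean of M-values (TMM), and 3 counts correspond to between 0.0464 and 0.134 CPM. As the sort labels imply, Rag1 was lower in CD4 than in DP libraries, with 714, 673 and 841 CPM in CD4 KO replicates 1 to 3, 237, 224 and 139 CPM in CD4 WT, 1982, 1734 and 1806 CPM in DP KO and 4229, 4534 and 4565 CPM in DP WT. Xist, the transcript of the inactive X chromosome, had 191, 283 and 601 CPM in DP KO, against 0.845, 0.273 and 476 CPM in DP WT, where replicates 1 and 2 stand apart. All 12 libraries held Y-linked Ddx3y, from 40.3 to 127 CPM, so most libraries carried transcripts of both sexes.

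For 35 of the 44 genes the group mean was highest in CD4 WT and lowest in DP WT, with both KO groups between them. Of the other 9, the CD4 KO mean was above the CD4 WT mean for Mx1, Cmpk2, Gbp2 and Gbp3, the DP KO mean was below the DP WT mean for Stat2, Ifit2 and Igtp, and the DP KO mean was above the CD4 WT mean for Ifi27 and Parp12. Of the 44 genes, 22 were called higher in DP KO than in DP WT (adjusted p under 0.05), and Stat2 alone was called lower. In CD4 cells the direction was the other way, with 26 called lower in CD4 KO than in CD4 WT and Gbp2 alone called higher. The median log2 fold change of KO over WT was 1.05 in DP and -0.56 in CD4, against 0.01 and 0.00 over all genes tested. Over all genes tested, 16.8% were called higher and 14.1% lower in DP (30.9% in either direction), and 20.9% higher and 18.8% lower in CD4 (39.7% in either direction). Every DP KO library lay above every DP WT library for 19 of the 44 genes and below for 1. Over all genes tested, these shares were 23.7% and 21.7%. In CD4, every KO library lay above every WT library for 1 of the 44 and below for 29, against 26.9% and 25% of all genes tested. Called higher in DP and lower in CD4 were 11 genes, namely Herc6, Ifih1, Zbp1, Oas3, Isg20, Ifi35, Xaf1, Trim30a, Parp10, Parp14 and Ifi47. Isg15, Oasl1, Ifit3, Mx1, Rsad2, Ifi44 and Igtp were called in neither. In bulk samples, a change in the share of cells that express a gene and a change in its RNA per cell cannot be told apart.

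**Figure D1:**
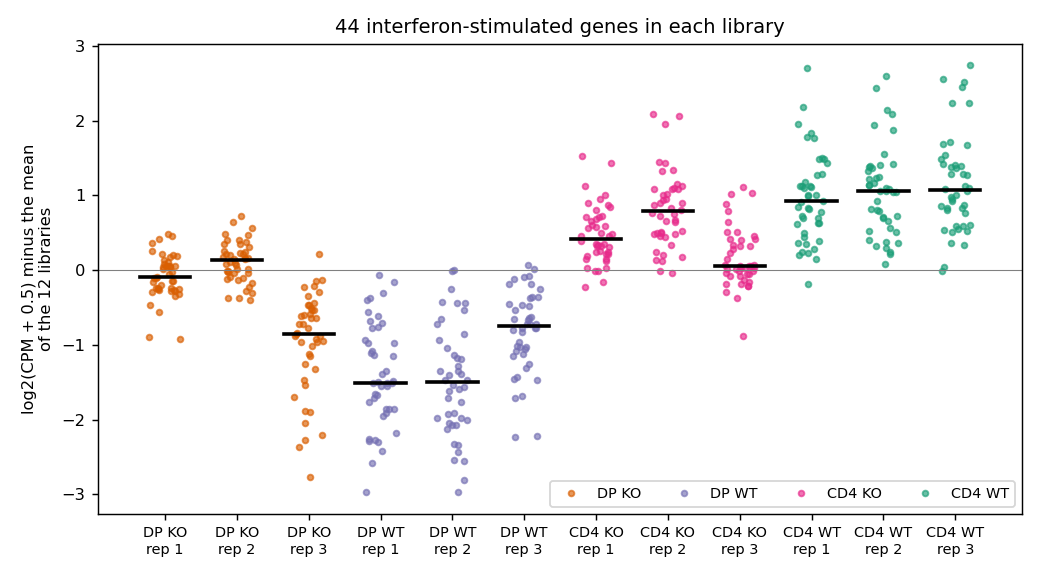
Each point is 1 of the 44 genes, plotted as log2(CPM + 0.5) minus that gene's mean over the 12 libraries, with libraries along the horizontal axis and black lines at the medians. The CD4 WT medians lie between 0.92 and 1.07, those of DP WT replicates 1 and 2 both at -1.50, and DP KO replicate 3 (-0.85) lies beside DP WT replicate 3 (-0.75).

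The replicates were not alike for these genes. DP KO replicates 1 and 2 were above all 3 DP WT libraries for 41 genes each, and DP KO replicate 3 for 19. DP KO replicate 3 was the lowest DP KO library for 43 of the 44 genes, whereas 40.5% of all genes tested had their lowest DP KO value there. DP WT replicate 3 was the highest DP WT library for 39 genes. The lowest was DP WT replicate 1 for 17 genes and replicate 2 for 25, against 33.3% and 27% of all genes tested. These are the 2 libraries with almost no Xist, and the main fits of every comparison with DP WT, and of the interaction, use them. Whether the make-up of these libraries bears on those comparisons was not tested. In CD4 KO, replicate 2 was the highest for 42 genes and replicate 3 the lowest for 39, whereas 39.9% of all genes tested were lowest in CD4 KO replicate 3. Shares over all genes were not computed for the highest library. The median ratio of the highest to the lowest replicate was 1.89 in DP KO, 1.64 in DP WT, 1.46 in CD4 KO and 1.19 in CD4 WT, against 1.22 to 1.24 over all genes tested.

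Because the batch number pairs the libraries, KO was also set against WT within each batch. In DP, the median log2 CPM ratio of the 44 genes was 1.40 in batch 1, 1.65 in batch 2 and -0.06 in batch 3. A ratio above 0 was found for 42 genes in batch 1, 42 in batch 2 and 19 in batch 3, so the rise in DP did not hold as a whole in batch 3. With the replicate block in the fit, 2816 of all 16776 genes tested were called higher in DP KO and 2394 lower. Among the 44 genes, 5 were called higher (Herc6, Oas1g, Ifit3b, Parp10 and Parp12) and Stat2 lower. The 17 other calls were lost with the block, at adjusted p from 0.0697 to 0.225, and over all alternatives tried the adjusted p of these 17 genes ranged from 5.19e-20 to 0.446. The number called higher in DP was 12 without DP KO replicate 1, 10 without replicate 2 and 34 without replicate 3. It was 8 without DP WT replicate 1, 9 without replicate 2 and 22 without replicate 3. Over all genes tested, the number called higher ran from 1942 of 17314 (without DP WT replicate 2) to 3085 of 18012 (without DP KO replicate 3). DP WT replicate 3, the DP WT library with Xist, was also set alone for DP WT. The median log2 fold change of the 44 genes was then 0.53, against 0.02 over all genes tested. Herc6, Ifih1, Oas1g, Isg20, Cmpk2, Parp12, Irgm1 and Gbp2 were called higher in DP KO whichever single library was left out. Each of those fits kept DP WT replicate 1, replicate 2 or both, the DP WT libraries with almost no Xist. Of these genes, Ifih1, Isg20, Cmpk2, Irgm1 and Gbp2 lost the call with the replicate block.

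In CD4 the direction held within every batch. The median log2 CPM ratio of KO over WT was -0.50 in batch 1, -0.30 in batch 2 and -0.95 in batch 3, and 34 genes had a ratio below 0 in all 3. Shares over all genes were not computed for the counts within batches. With the replicate block, 25 of the 44 genes were called lower and 2 higher in CD4 KO. Of all 17316 genes tested, 3704 were called lower and 4061 higher with it. Irf7, Usp18, Zbp1, Oas2, Ifit1 and Rtp4 lost the call with the block, at adjusted p from 0.0583 to 0.115, within a range of 2.22e-11 to 0.262 over all alternatives. Leaving out each CD4 library in turn gave between 18 and 32 of the 44 genes called lower. The fit with 18 (without CD4 WT replicate 2) called 2620 of 17669 genes lower. The fit with 32 (without CD4 KO replicate 2) called 2647 of 17703 lower. In a single model over all 12 libraries, 13 of the 44 were called lower and 0 higher. Of all 18431 genes tested there, 3197 were called lower and 3745 higher.

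**Figure D2:**
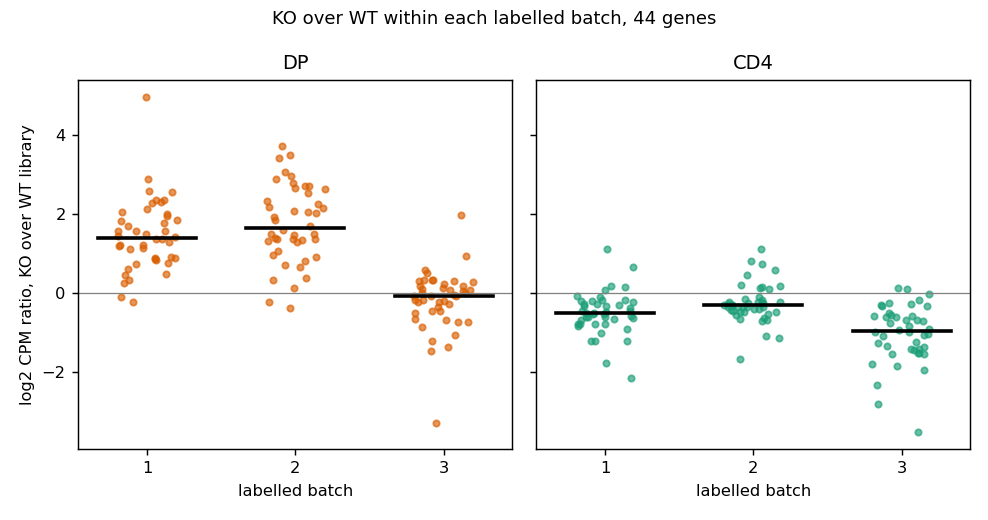
Each point is the log2 ratio of CPM in the KO library over the WT library of the same labelled batch for 1 of the 44 genes, with DP at the left, CD4 at the right and black lines at the medians. The DP points lie mostly above 0 in batches 1 and 2 and on both sides of it in batch 3 (median -0.06), and the CD4 medians are below 0 in all 3 batches.

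The signal factors come first. Beside the counts called by role below, 16.8% of all genes tested were called higher and 14.1% lower in DP. In CD4 these shares were 20.9% and 18.8%. Irf7, a transcription factor that amplifies interferon production, had 38.1, 49.996 and 18.5 CPM in DP KO replicates 1 to 3, against 11.7, 11.98 and 19.3 CPM in DP WT. The DP groups overlapped, with DP KO replicate 3 inside the WT range, and the log2 fold change was 1.34 ± 0.45 (SE, adjusted p = 0.0885). In CD4 cells Irf7 had 77.2, 100.4 and 52.2 CPM in CD4 KO replicates 1 to 3, against 132, 138 and 151 CPM in CD4 WT, and all CD4 KO libraries were lower, with a log2 fold change of -0.87 ± 0.23 (SE, adjusted p = 0.0247). Irf9, the DNA-binding part of ISGF3, had 119, 137 and 88.7 CPM in CD4 KO replicates 1 to 3, against 203, 210.0 and 211 CPM in CD4 WT. Those groups did not overlap, and Irf9 fell in CD4 KO by a log2 fold change of -0.85 ± 0.14 (SE, adjusted p = 0.00144); in DP its log2 fold change was 0.73 ± 0.31 (SE, adjusted p = 0.148). Stat2, the transactivating part of ISGF3, had 85.4, 88.9 and 71.9 CPM in DP KO replicates 1 to 3, against 99.1, 104 and 97.3 CPM in DP WT. Every DP KO library was below every DP WT library, and Stat2 fell in DP KO by a log2 fold change of -0.27 ± 0.09 (SE, adjusted p = 0.0343). The CD4 libraries showed the same direction, with 113, 120.3 and 89.8 CPM in CD4 KO replicates 1 to 3, against 137, 135 and 132 CPM in CD4 WT, and a log2 fold change of -0.32 ± 0.10 (SE, adjusted p = 0.0275). Stat2 was thus called lower in both cell types, but its call was lost in DP without DP KO replicate 1 or 3 or without DP WT replicate 1 or 2, and in CD4 without CD4 WT replicate 1 or 2. Its exons share 220 bases with Apof on the same strand, so reads there cannot be assigned to either gene with certainty.

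Of the ISG15 system, Herc6, the ligase that attaches ISG15 to proteins in mice, was called in both cell types with opposite signs. Herc6 had 60.1, 56.6 and 50.4 CPM in DP KO replicates 1 to 3, against 39.4, 43.3 and 42.6 CPM in DP WT. The DP groups did not overlap, and Herc6 rose in DP KO by a log2 fold change of 0.43 ± 0.09 (SE, adjusted p = 0.00445). In CD4 cells it had 57.9, 65.7 and 53.4 CPM in CD4 KO replicates 1 to 3, against 82.5, 83.2 and 89.1 CPM in CD4 WT, again without overlap, and it fell in CD4 KO by a log2 fold change of -0.52 ± 0.08 (SE, adjusted p = 0.000634). Herc6 shares 8.69% of its stretches of 150 bases, the read length, with the predicted gene Gm45193, so some of its reads may belong to that copy. Isg15, the ubiquitin-like modifier, had 15.2, 18.7 and 5.79 CPM in DP KO replicates 1 to 3, against 4.25, 3.92 and 9.19 CPM in DP WT. DP KO replicate 3 lay between the DP WT libraries, and the log2 fold change was 1.25 ± 0.58 (SE, adjusted p = 0.183). In CD4, where all KO libraries were the lower ones, Isg15 had 16.7, 29.9 and 15.1 CPM in CD4 KO replicates 1 to 3, against 33.6, 31.8 and 38.7 CPM in CD4 WT, and its log2 fold change of -0.75 ± 0.26 (SE, adjusted p = 0.0545) missed the threshold. Usp18, which removes ISG15 and blocks the type I receptor, fell in CD4 KO by a log2 fold change of -0.77 ± 0.24 (SE, adjusted p = 0.04), with a value of 1.05 ± 0.63 (SE, adjusted p = 0.287) in DP. Trim25, a ubiquitin ligase that acts with the RNA sensor RIG-I, fell in CD4 KO by a log2 fold change of -0.33 ± 0.09 (SE, adjusted p = 0.0142), and its DP value was 0.13 ± 0.16 (SE, adjusted p = 0.576).

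All 3 nucleic acid sensors among the 44 were called lower in CD4 KO, and Ifih1 and Zbp1 were called higher in DP KO. Ifih1, which encodes the sensor MDA5 of double-stranded RNA, had 24.8, 28.3 and 19.1 CPM in DP KO replicates 1 to 3, against 8.79, 8.69 and 15.3 CPM in DP WT. Every DP KO library was above every DP WT library, and Ifih1 rose in DP KO by a log2 fold change of 1.17 ± 0.25 (SE, adjusted p = 0.00841). It had 30.96, 38.6 and 26.03 CPM in CD4 KO replicates 1 to 3, against 57.8, 62.9 and 69.4 CPM in CD4 WT, with no overlap, and fell in CD4 KO by a log2 fold change of -0.99 ± 0.14 (SE, adjusted p = 0.000474). Zbp1, a sensor of Z-form nucleic acid that can trigger cell death, had 68.1, 82.2 and 45.9 CPM in DP KO replicates 1 to 3, against 19.9, 18.6 and 37.03 CPM in DP WT. The groups did not overlap, and the log2 fold change was 1.41 ± 0.38 (SE, adjusted p = 0.0463) in DP and -0.54 ± 0.12 (SE, adjusted p = 0.00647) in CD4. Dhx58, whose product LGP2 assists MDA5, had 21.7, 28.9 and 16.4 CPM in CD4 KO replicates 1 to 3, against 38.7, 42.4 and 46.6 CPM in CD4 WT. All CD4 KO libraries were below all CD4 WT libraries, and Dhx58 fell in CD4 KO by a log2 fold change of -0.92 ± 0.19 (SE, adjusted p = 0.00482); its DP value was 1.05 ± 0.40 (SE, adjusted p = 0.0968), with overlapping groups.

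The oligoadenylate synthetases make short oligoadenylates when they sense double-stranded RNA, and Isg20 is an exonuclease that degrades RNA. Of these 8 genes, 5 were called higher in DP KO and 4 lower in CD4 KO. Oas3, on chr5 (chr5:120753098-120777684), had 35.7, 36.6 and 15.8 CPM in DP KO replicates 1 to 3, against 6.10, 5.79 and 11.02 CPM in DP WT. The DP groups did not overlap, although DP KO replicate 3 was well below replicates 1 and 2, and Oas3 rose in DP KO by a log2 fold change of 1.99 ± 0.46 (SE, adjusted p = 0.0283). In CD4 cells it had 56.4, 67.1 and 41.6 CPM in CD4 KO replicates 1 to 3, against 85.1, 82.5 and 82.5 CPM in CD4 WT, without overlap, and it fell in CD4 KO by a log2 fold change of -0.60 ± 0.15 (SE, adjusted p = 0.015). Its neighbour Oas2 (chr5:120730333-120749886) had 19.8, 20.4 and 4.55 CPM in DP KO replicates 1 to 3, against 2.65, 1.91 and 7.14 CPM in DP WT. DP KO replicate 3 lay inside the DP WT range, and the log2 fold change was 2.03 ± 0.85 (SE, adjusted p = 0.159). In CD4, Oas2 had 27.6, 35.9 and 9.72 CPM in CD4 KO replicates 1 to 3, against 123, 113 and 110.4 CPM in CD4 WT, and this drop, a log2 fold change of -2.23 ± 0.50 (SE, adjusted p = 0.0249), was larger in size than that of any other of the 44 genes in CD4.

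Oas1a (chr5:120896256-120907544) had 11.4, 12.3 and 4.22 CPM in DP KO replicates 1 to 3, against 2.76, 2.12 and 3.35 CPM in DP WT. Oas1g (chr5:120876142-120887613) had 1.89, 2.62 and 0.877 CPM in DP KO replicates 1 to 3, against 0.708, 0.399 and 0.223 CPM in DP WT. Neither gene's DP groups overlapped, and the log2 fold change was 1.80 ± 0.41 (SE, adjusted p = 0.0135) for Oas1a and 1.96 ± 0.48 (SE, adjusted p = 0.0096) for Oas1g. Oas1a shares 32.4% of its stretches of 150 bases with Oas1g, and Oas1g shares 24.1% with Oas1a, so how reads were split between them is uncertain. Neither was called in CD4, where the log2 fold change was -0.24 ± 0.15 (SE, adjusted p = 0.256) for Oas1a and -0.32 ± 0.22 (SE, adjusted p = 0.29) for Oas1g. Oas1b, known from flavivirus resistance in mice, rose in DP KO by a log2 fold change of 0.91 ± 0.26 (SE, adjusted p = 0.0283), with overlapping groups. Isg20 had 18.2, 20.8 and 11.4 CPM in DP KO replicates 1 to 3, against 7.95, 6.88 and 10.4 CPM in DP WT. All DP KO libraries were higher, and the log2 fold change was 1.02 ± 0.23 (SE, adjusted p = 0.00964) in DP and -0.62 ± 0.14 (SE, adjusted p = 0.00506) in CD4, where all KO libraries were lower. Oasl2, an OAS-like protein, had 14.6, 22.9 and 10.4 CPM in CD4 KO replicates 1 to 3, against 49.6, 48.3 and 51.6 CPM in CD4 WT, and fell in CD4 KO by a log2 fold change of -1.63 ± 0.26 (SE, adjusted p = 0.00252). Its DP value was 2.12 ± 0.75 (SE, adjusted p = 0.0982). Oasl1, which in mice limits translation of IRF7, had log2 fold changes of 0.59 ± 0.54 (SE, adjusted p = 0.469) in DP and -0.92 ± 0.31 (SE, adjusted p = 0.0501) in CD4.

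The IFIT proteins bind foreign RNA and hold back its translation, and their genes lie together on chr19, from Ifit2 (chr19:34550550-34576534) to Ifit1 (chr19:34640889-34650009). Ifit2 did not share the direction of the others in DP, where it had 46.3, 42.8 and 50.05 CPM in DP KO replicates 1 to 3, against 49.7, 55.6 and 58.5 CPM in DP WT. Those groups overlapped, and the log2 fold change was -0.22 ± 0.09 (SE, adjusted p = 0.0915). In CD4 cells it had 47.5, 54.2 and 52.5 CPM in CD4 KO replicates 1 to 3, against 67.9, 73.8 and 79.6 CPM in CD4 WT, without overlap, and Ifit2 fell in CD4 KO by a log2 fold change of -0.52 ± 0.08 (SE, adjusted p = 0.000563). Ifit1 fell in CD4 KO by a log2 fold change of -1.18 ± 0.32 (SE, adjusted p = 0.0322). In DP it had 14.6, 19.3 and 2.98 CPM in DP KO replicates 1 to 3, against 2.83, 2.58 and 7.58 CPM in DP WT, with DP KO replicate 3 inside the DP WT range and a log2 fold change of 1.58 ± 0.88 (SE, adjusted p = 0.263). Ifit3b had 2.30, 3.59 and 0.785 CPM in DP KO replicates 1 to 3, against 0.571, 0.713 and 0.625 CPM in DP WT. Its DP groups did not overlap, and the log2 fold change was 1.82 ± 0.49 (SE, adjusted p = 0.0182). The close copy Ifit3 had 6.78, 9.73 and 2.31 CPM in DP KO replicates 1 to 3, against 2.26, 2.16 and 2.41 CPM in DP WT, with 1 DP KO library inside the DP WT range and a log2 fold change of 1.48 ± 0.47 (SE, adjusted p = 0.0511). Ifit3 shares 18.5% of its stretches of 150 bases with Ifit3b, which shares 16.0% in return, so the split of their reads is uncertain. Neither was called in CD4, where the log2 fold changes were -0.59 ± 0.36 (SE, adjusted p = 0.269) for Ifit3 and -0.69 ± 0.41 (SE, adjusted p = 0.249) for Ifit3b.

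Of 12 other antiviral effectors, 6 were called higher in DP KO and 6 lower in CD4 KO. Cmpk2, a mitochondrial nucleotide kinase, had 24.4, 28.9 and 14.7 CPM in DP KO replicates 1 to 3, against 4.75, 3.71 and 7.67 CPM in DP WT. All DP KO libraries were higher, and the log2 fold change of 2.12 ± 0.35 (SE, adjusted p = 0.00498) was the largest of the 44 genes in DP. In CD4 cells it had 30.5, 44.6 and 27.2 CPM in CD4 KO replicates 1 to 3, against 19.2, 20.5 and 30.5 CPM in CD4 WT, with overlapping groups and a log2 fold change of 0.55 ± 0.24 (SE, adjusted p = 0.109). Rsad2, which encodes viperin and lies next to Cmpk2 on chr12 (chr12:26442743-26456452 against chr12:26469117-26479837), had 15.3, 19.95 and 4.52 CPM in DP KO replicates 1 to 3, against 2.56, 3.02 and 10.3 CPM in DP WT. DP KO replicate 3 lay inside the DP WT range for Rsad2, and its log2 fold change was 1.40 ± 0.86 (SE, adjusted p = 0.305) in DP and -0.14 ± 0.39 (SE, adjusted p = 0.822) in CD4. Bst2, the tetherin that holds budding virus at the cell surface, had 48.7, 56.2 and 31.7 CPM in DP KO replicates 1 to 3, against 26.9, 26.7 and 31.5 CPM in DP WT, and rose in DP KO by a log2 fold change of 0.70 ± 0.20 (SE, adjusted p = 0.0293). The lowest DP KO library and the highest DP WT library of Bst2 differed only slightly. Ifi27, a small membrane protein gene, had 111, 105 and 73.7 CPM in DP KO replicates 1 to 3, against 64.9, 59.3 and 76.3 CPM in DP WT, with DP KO replicate 3 inside the DP WT range and a log2 fold change of 0.54 ± 0.16 (SE, adjusted p = 0.0362). Neither Bst2 (log2 fold change -0.19) nor Ifi27 (-0.23) was called in CD4. Ifi27 shares 103 exon bases with Ifi27l2a on the opposite strand, and the sources used here do not say whether counting used strand.

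Ifi35, Xaf1 and Trim30a were called with opposite signs in the 2 cell types. Trim30a, a ubiquitin ligase that restrains NF-kB signalling in mice, had 77.4, 85.2 and 50.3 CPM in DP KO replicates 1 to 3, against 35.2, 30.3 and 47.3 CPM in DP WT. It had 139.7, 156 and 109 CPM in CD4 KO replicates 1 to 3, against 202, 219 and 228 CPM in CD4 WT, and neither pair of groups overlapped. The log2 fold change of Trim30a was 0.94 ± 0.25 (SE, adjusted p = 0.0352) in DP and -0.68 ± 0.12 (SE, adjusted p = 0.00213) in CD4. Ifi35, which encodes an interferon-induced leucine zipper protein, had 37.04, 44.97 and 32.5 CPM in CD4 KO replicates 1 to 3, against 54.99, 55.3 and 62.02 CPM in CD4 WT, with log2 fold changes of 0.69 ± 0.22 (SE, adjusted p = 0.0479) in DP and -0.59 ± 0.11 (SE, adjusted p = 0.00252) in CD4. Xaf1, which encodes a binding partner of the apoptosis inhibitor XIAP, had log2 fold changes of 1.52 ± 0.41 (SE, adjusted p = 0.0426) in DP and -0.82 ± 0.19 (SE, adjusted p = 0.0106) in CD4. Samd9l, a restriction factor of poxviruses, had 171, 184 and 138 CPM in CD4 KO replicates 1 to 3, against 240.5, 295 and 285 CPM in CD4 WT. No CD4 KO library reached the CD4 WT range, and Samd9l fell in CD4 KO by a log2 fold change of -0.73 ± 0.11 (SE, adjusted p = 0.000795), with a DP value of 0.45 ± 0.31 (SE, adjusted p = 0.339). Rtp4, known as a chaperone of cell surface receptors, fell in CD4 KO by a log2 fold change of -0.73 ± 0.21 (SE, adjusted p = 0.0332), with a DP value of 1.68 ± 0.63 (SE, adjusted p = 0.124).

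The dynamin-like GTPase genes Mx1 and Mx2, neighbours on chr16 (chr16:97447035-97462906 and chr16:97536081-97560901), differed in CD4. Mx2 had 9.86, 14.9 and 7.47 CPM in CD4 KO replicates 1 to 3, against 22.9, 20.8 and 26.7 CPM in CD4 WT, without overlap, and fell in CD4 KO by a log2 fold change of -1.11 ± 0.23 (SE, adjusted p = 0.0061). Mx1 had 17.8, 25.9 and 13.2 CPM in CD4 KO replicates 1 to 3, against 15.9, 17.1 and 21.4 CPM in CD4 WT, with overlapping groups and a log2 fold change of 0.07 ± 0.24 (SE, adjusted p = 0.85). The difference between the Mx1 and Mx2 effects was not tested. In DP, Mx1 had a log2 fold change of 1.67 ± 0.68 (SE, adjusted p = 0.12) and Mx2 of 1.09 ± 0.64 (SE, adjusted p = 0.265), and both pairs of groups overlapped. Ifi44, the least abundant of these in DP, had 2.87, 3.32 and 0.185 CPM in DP KO replicates 1 to 3, against 0.0913, 0.294 and 1.78 CPM in DP WT. Its values in DP KO replicate 3 and DP WT replicates 1 and 2 were near the level of 3 counts, and its log2 fold change was 1.79 ± 1.42 (SE, adjusted p = 0.415) in DP and -1.34 ± 0.43 (SE, adjusted p = 0.055) in CD4.

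PARP9 and DTX3L form a complex with ubiquitin ligase activity, and PARP10, PARP12 and PARP14 attach single ADP-ribose units to proteins. Parp12 had 22.9, 23.9 and 19.8 CPM in DP KO replicates 1 to 3, against 9.86, 9.17 and 15.7 CPM in DP WT. All DP KO libraries were higher, and Parp12 rose in DP KO by a log2 fold change of 0.97 ± 0.19 (SE, adjusted p = 0.0039), whereas its CD4 value was -0.04 ± 0.11 (SE, adjusted p = 0.813). Parp10 had 102, 119 and 86.5 CPM in DP KO replicates 1 to 3, against 80.5, 72.7 and 82.7 CPM in DP WT. It had 95.01, 115 and 95.2 CPM in CD4 KO replicates 1 to 3, against 163, 153 and 152 CPM in CD4 WT, and neither pair of groups overlapped. The log2 fold change of Parp10 was 0.39 ± 0.11 (SE, adjusted p = 0.0191) in DP and -0.62 ± 0.08 (SE, adjusted p = 0.000237) in CD4. Parp14 had 117, 122 and 84.6 CPM in DP KO replicates 1 to 3, against 45.4, 46.6 and 74.4 CPM in DP WT. In CD4 it had 192, 214 and 172 CPM in CD4 KO replicates 1 to 3, against 248, 270.2 and 261 CPM in CD4 WT, and its log2 fold change was 0.98 ± 0.25 (SE, adjusted p = 0.0323) in DP and -0.43 ± 0.08 (SE, adjusted p = 0.00245) in CD4, without overlap in either. Parp9 had 90.4, 107 and 78.5 CPM in CD4 KO replicates 1 to 3, against 125, 126 and 139 CPM in CD4 WT, without overlap, and fell in CD4 KO by a log2 fold change of -0.50 ± 0.10 (SE, adjusted p = 0.00432). Dtx3l fell in CD4 KO by a log2 fold change of -0.30 ± 0.09 (SE, adjusted p = 0.0218). In DP the values were 0.55 ± 0.20 (SE, adjusted p = 0.0722) for Parp9 and 0.42 ± 0.17 (SE, adjusted p = 0.097) for Dtx3l. The head-to-head neighbours Parp9 (chr16:35938470-35972621) and Dtx3l (chr16:35926515-35939027) share 334 exon bases on opposite strands, so reads there cannot be told apart without strand.

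The 5 GTPases induced by interferon gamma take part in defence against pathogens held in vacuoles. Of these genes, 4 were called higher in DP KO, and in CD4 KO Gbp2 was called higher and Ifi47 lower. Irgm1 (chr11:48865245-48871420) had 64.9, 73.4 and 44.4 CPM in DP KO replicates 1 to 3, against 21.8, 20.3 and 29.6 CPM in DP WT. No DP KO library overlapped DP WT, and Irgm1 rose in DP KO by a log2 fold change of 1.37 ± 0.22 (SE, adjusted p = 0.00279). In CD4 it had 105, 121 and 90.2 CPM in CD4 KO replicates 1 to 3, against 98.05, 111 and 112 CPM in CD4 WT, with overlapping groups and a log2 fold change of -0.02 ± 0.10 (SE, adjusted p = 0.884). Gbp2 (chr3:142620663-142638008) had 41.7, 50.1 and 30.4 CPM in DP KO replicates 1 to 3, against 16.9, 18.005 and 24.8 CPM in DP WT, and it rose in DP KO by a log2 fold change of 1.05 ± 0.21 (SE, adjusted p = 0.00635). Gbp2 was also higher in CD4 KO, with 93.2, 113 and 93.5 CPM in CD4 KO replicates 1 to 3, against 82.7, 81.99 and 86.2 CPM in CD4 WT, without overlap, and a log2 fold change of 0.26 ± 0.08 (SE, adjusted p = 0.0291). That CD4 call was lost without CD4 KO replicate 2, without CD4 WT replicate 1 and without CD4 WT replicate 2. Ifi47 had 75.4, 86.9 and 58.9 CPM in DP KO replicates 1 to 3, against 34.8, 34.8 and 52.1 CPM in DP WT. It had 125, 140.5 and 119 CPM in CD4 KO replicates 1 to 3, against 158, 169.6 and 191 CPM in CD4 WT, and its log2 fold change was 0.88 ± 0.20 (SE, adjusted p = 0.0142) in DP and -0.43 ± 0.09 (SE, adjusted p = 0.00326) in CD4. Gbp3 had a log2 fold change of 1.07 ± 0.33 (SE, adjusted p = 0.0378) in DP, with overlapping groups, and of 0.63 ± 0.27 (SE, adjusted p = 0.109) in CD4. Igtp was called in neither, with -0.07 ± 0.18 (SE, adjusted p = 0.816) in DP and -0.16 ± 0.07 (SE, adjusted p = 0.125) in CD4. Ifi47 shares 676 exon bases with Gm12188 and Gbp3 326 with Gm40158, both on opposite strands.

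**Figure D3:**
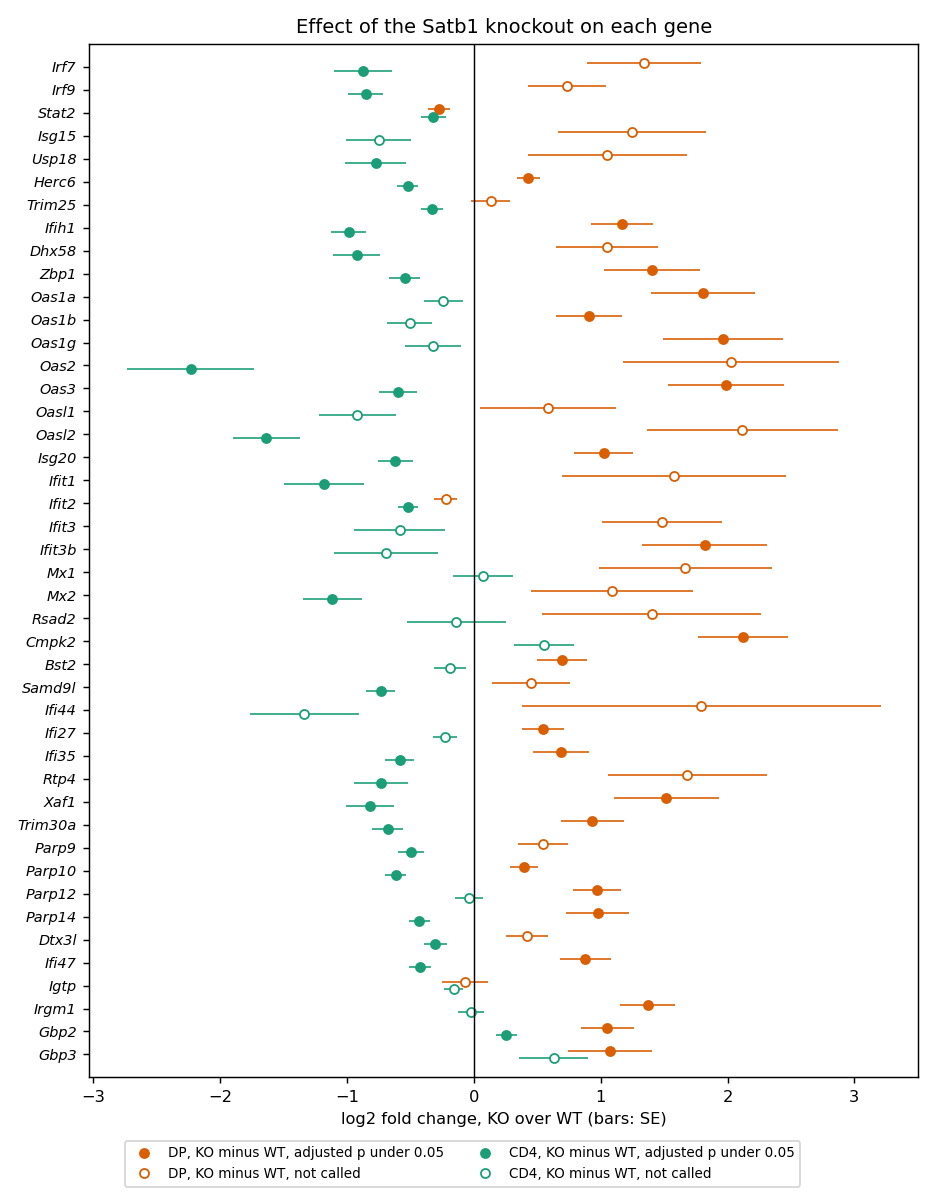
Log2 fold change of KO over WT for each of the 44 genes, ordered by role, with bars for 1 SE. Orange points are DP and green points CD4, and filled points have an adjusted p under 0.05. Orange points lie right of 0 for 41 genes and green points left of 0 for 40, with DP error bars that are mostly longer.

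**Figure D4:**
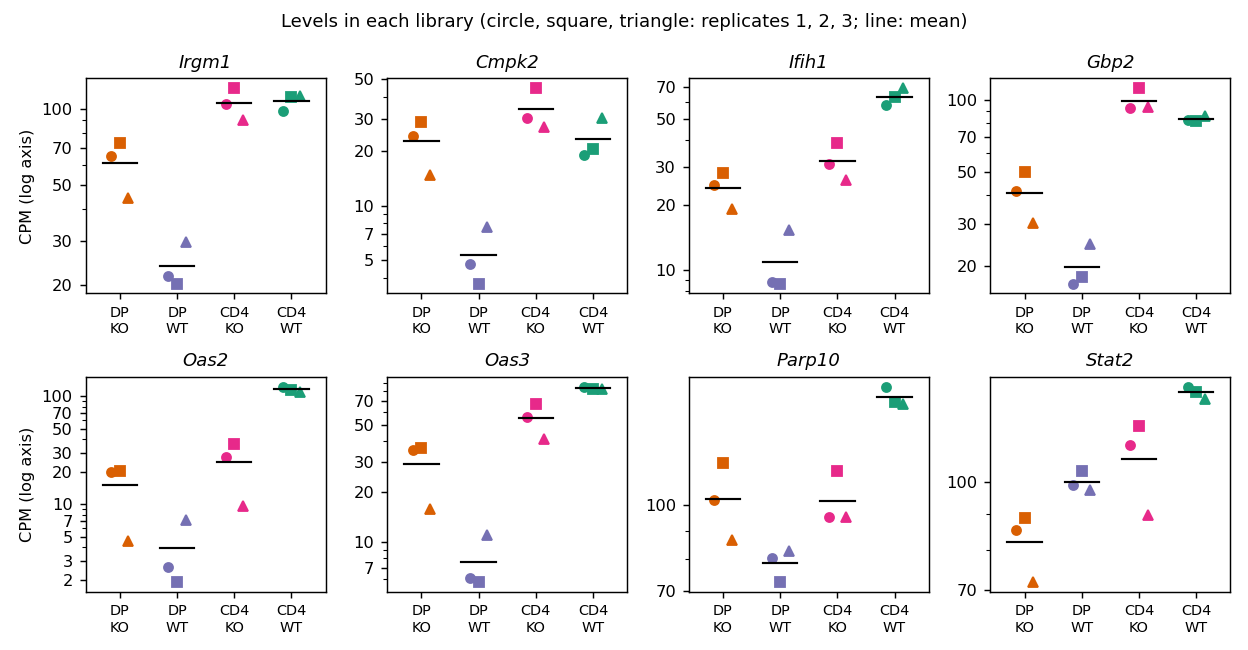
CPM on log axes in each library for 8 of the genes, with the groups along the horizontal axis, the replicate given by the symbol and the mean by a line. In CD4 KO, Irgm1 overlaps its CD4 WT level, Gbp2 lies above it, and Oas2, Oas3, Ifih1 and Parp10 lie below it, and Stat2 is lower in both KO groups than in their WT groups.

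In WT cells, all 44 genes were called higher in CD4 than in DP (28% of all genes tested were called higher and 27.1% lower, 55.1% in all), with a median log2 fold change of 2.20. For all 44, every CD4 WT library lay above every DP WT library, against 32.1% of all genes tested. The reverse order held for 30.6% of all genes tested and for 0 of the 44. The 8 with the smallest adjusted p included Ifit3, with 46.1, 51.6 and 73.1 CPM in CD4 WT replicates 1 to 3, against 2.26, 2.16 and 2.41 CPM in DP WT, a log2 fold change of 4.65 ± 0.19 (SE, adjusted p = 1.32e-08). Ifit3b followed with 5.09 ± 0.25 (SE, adjusted p = 1.94e-08), Oas1a with 2.98 ± 0.18 (SE, adjusted p = 6.05e-08) and Mx1 with 3.91 ± 0.24 (SE, adjusted p = 1.24e-07). The others were Gbp2 at 2.08, Oasl1 at 2.61, Irf9 at 1.97 and Herc6 at 1.02 on the log2 scale. The range over the 44 ran from 0.42 for Ifi27 to 5.42 for Ifi44. Calls were lost for Usp18, Rsad2 or Gbp3 in some of the fits that left out a library, with 41 to 44 genes called. Per length, in RPKM (CPM per kilobase of exon), the order of levels differed between the stages: in CD4 WT Zbp1 had the highest group mean (81.5 RPKM), and in DP WT Ifi27 (50.6 RPKM). Oas1g had the lowest in both, at 1.88 RPKM in CD4 WT and 0.214 RPKM in DP WT.

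In KO cells, 13 of the 44 genes were called higher in CD4 than in DP (over all genes tested, 13.9% higher and 7.9% lower), with a median log2 fold change of 0.77. None was called lower by edgeR, by DESeq2 (0) or by limma-voom (0), and 1 was lower at an unadjusted p under 0.05. Those 13 were Stat2, Zbp1, Ifit3, Ifit3b, Mx1, Samd9l, Trim30a, Parp14 and all 5 interferon-gamma-inducible GTPases. Gbp3 had 19.1, 22.4 and 22.2 CPM in CD4 KO replicates 1 to 3, against 10.4, 9.03 and 6.76 CPM in DP KO, and a log2 fold change of 1.30 ± 0.16 (SE, adjusted p = 0.000693). For Gbp2 the log2 fold change was 1.31 ± 0.17 (SE, adjusted p = 0.00133), for Ifi47 0.82 ± 0.13 (SE, adjusted p = 0.00309), for Parp14 0.86 ± 0.14 (SE, adjusted p = 0.00322) and for Igtp 0.94 ± 0.16 (SE, adjusted p = 0.00482). These 5 were also called whichever library was left out. With the replicate block, 3519 of all 16910 genes tested were called higher and 3139 lower. Of the 44 genes, 30 were called higher with it and 2 lower (Ifi27 and Parp12). Without the block, 5 were called higher without CD4 KO replicate 1, 6 without CD4 KO replicate 2 and 5 without DP KO replicate 1. Over all genes tested, these fits called 1570 of 17446, 1578 of 17140 and 1595 of 17387 higher, in that order.

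The difference between the KO effects, CD4 minus DP, was below 0 for all 44 genes, with a median of -1.57 on the log2 scale (0.03 over all genes tested). It was called for 30 genes, all with a lower KO effect in CD4, and 13.3% of all genes tested were called lower and 14.3% higher in that test. Herc6 had the smallest adjusted p, at -0.94 ± 0.12 (SE, adjusted p = 4.37e-05), followed by Parp10 at -0.999 ± 0.15 (SE, adjusted p = 0.000151) and Ifih1 at -2.15 ± 0.32 (SE, adjusted p = 0.000437). Isg20 (-1.63), Ifi47 (-1.30), Irgm1 (-1.39), Parp14 (-1.40) and Trim30a (-1.61) came next. The largest difference in size was that of Oas2, at -4.30 ± 1.00 (SE, adjusted p = 0.013). Stat2 (-0.03 ± 0.14 (SE, adjusted p = 0.89)) and Igtp (-0.08 ± 0.21 (SE, adjusted p = 0.827)) had the values nearest 0. With the replicate block 25 of the 44 genes were called, all lower, against 2922 lower and 3110 higher of all 18431 genes tested. With DP WT replicate 3 alone for DP WT, the median difference was -1.16 over the 44 genes and 0.01 over all genes tested. This difference uses the same 4 groups as the comparisons of CD4 with DP, so it is the same contrast seen from the other side: the log2 fold change of CD4 over DP was smaller in KO than in WT for all 44.

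**Figure D5:**
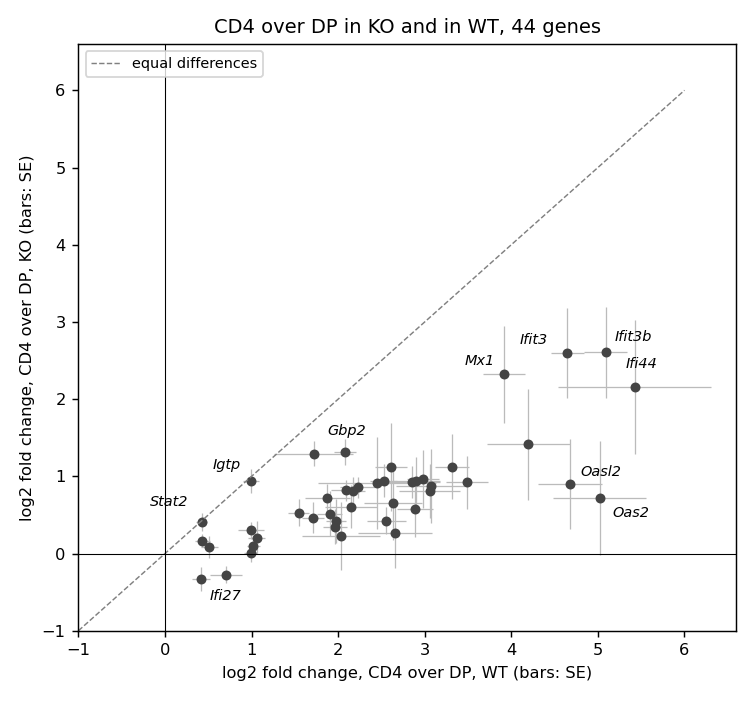
Each point is 1 of the 44 genes, with the log2 fold change of CD4 over DP in WT on the horizontal axis and in KO on the vertical axis, bars for 1 SE and a dashed line where they are equal. The points lie below the line, with medians of 0.77 in KO and 2.20 in WT, and Stat2 and Igtp lie nearest to it.

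Of the 10 interferon genes looked for, Ifng alone passed the filter on low counts. It had 1.58, 1.61 and 2.12 CPM in DP KO replicates 1 to 3, against 0.183, 0.189 and 0.312 CPM in DP WT, without overlap, and a log2 fold change of 3.02 ± 0.36 (SE, adjusted p = 0.0001). In CD4 it had 3.22, 4.75 and 13.7 CPM in CD4 KO replicates 1 to 3, against 4.33, 2.83 and 10.1 CPM in CD4 WT, with a log2 fold change of 0.35 ± 0.75 (SE, adjusted p = 0.766). The other 9, among them Ifnb1 and 4 interferon alpha genes, had no value above 0.178 CPM in any library. For this list and those below, the shares over all genes tested were 16.8% called higher and 14.1% lower in DP. In CD4 they were 20.9% higher and 18.8% lower. Of 8 receptor and kinase genes tested, 4 were called higher and 1 lower in DP KO, and 2 higher and 3 lower in CD4 KO. Ifngr1, the ligand-binding chain of the interferon gamma receptor, had 1792, 1872 and 1813 CPM in DP KO replicates 1 to 3, against 425, 446 and 389 CPM in DP WT, a log2 fold change of 2.13 ± 0.08 (SE, adjusted p = 1.51e-08). In CD4 the Ifngr1 value was 3.08 ± 0.12 (SE, adjusted p = 2.2e-07), while that of its partner chain Ifngr2 was -1.39 ± 0.07 (SE, adjusted p = 9.01e-07). Ifnar1, a chain of the type I receptor, had -0.01 ± 0.06 (SE, adjusted p = 0.917) in DP and -0.33 ± 0.06 (SE, adjusted p = 0.00182) in CD4, and its partner Ifnar2 had 0.42 ± 0.08 (SE, adjusted p = 0.00296) in DP and 0.47 ± 0.06 (SE, adjusted p = 0.000193) in CD4. The kinase gene Jak1 fell in CD4 KO by a log2 fold change of -0.63 ± 0.07 (SE, adjusted p = 8.43e-05), and Tyk2 rose in DP KO by 0.66 ± 0.09 (SE, adjusted p = 0.000249).

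Of 6 other signal factors, 3 were called higher in DP KO, and 3 lower and 1 higher in CD4 KO. Irf1, a factor induced by interferon gamma, rose in DP KO by a log2 fold change of 0.76 ± 0.17 (SE, adjusted p = 0.0116), and Irf8 rose by 0.53 ± 0.11 (SE, adjusted p = 0.00452) in DP KO and by 0.60 ± 0.17 (SE, adjusted p = 0.0232) in CD4 KO. Of 8 inhibitors, 2 were called higher and 2 lower in DP KO, and 1 higher and 2 lower in CD4 KO. Socs1, which blocks JAK kinases, fell in DP KO by a log2 fold change of -1.33 ± 0.15 (SE, adjusted p = 0.000211), with 45.1, 54.01 and 67.2 CPM in DP KO replicates 1 to 3, against 161, 127 and 131 CPM in DP WT. Socs3, which blocks JAK kinases at cytokine receptors, rose by 1.01 ± 0.12 (SE, adjusted p = 0.000128) in DP KO and by 1.21 ± 0.12 (SE, adjusted p = 3.2e-05) in CD4 KO.

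Of the other sensors and adaptors, 6 of 10 tested were called higher in DP KO, and in CD4 KO 1 of 11 was called higher and 6 lower. None was called lower in DP KO by edgeR, and 2 were lower at an unadjusted p under 0.05. Sting1, the adaptor downstream of the DNA sensor cGAS, had 24.1, 26.7 and 23.5 CPM in DP KO replicates 1 to 3, against 11.7, 10.3 and 14.1 CPM in DP WT, without overlap and with a log2 fold change of 1.06 ± 0.13 (SE, adjusted p = 0.000106). In CD4 it had 57.3, 59.2 and 53.9 CPM in CD4 KO replicates 1 to 3, against 98.4, 100.2 and 100.3 CPM in CD4 WT, and fell in CD4 KO by a log2 fold change of -0.81 ± 0.06 (SE, adjusted p = 6.22e-06). Ddx58, which encodes RIG-I, had a log2 fold change of 0.71 ± 0.19 (SE, adjusted p = 0.0274) in DP and -0.93 ± 0.10 (SE, adjusted p = 7.97e-05) in CD4. Cgas, which encodes the DNA sensor itself, rose in both, by 1.13 ± 0.15 (SE, adjusted p = 0.000228) in DP KO and 0.98 ± 0.14 (SE, adjusted p = 0.000377) in CD4 KO. Tlr7, a sensor of single-stranded RNA in endosomes, fell in CD4 KO by a log2 fold change of -2.61 ± 0.23 (SE, adjusted p = 4.28e-05).

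A further 68 interferon-stimulated genes outside the 44 were also counted. This list too was chosen with earlier results of these data known, so it is no independent check. Of 66 tested in DP, 30 were called higher and 2 lower in DP KO, with a median log2 fold change of 0.77. Over all genes tested in DP, 16.8% were called higher and 14.1% lower. Of 68 tested in CD4, 17 were called higher and 25 lower in CD4 KO, with a median of -0.16. Over all genes tested in CD4, 20.9% were called higher and 18.8% lower. The CD4 calls of this list thus went both ways, whereas of the 44 genes 1 was called higher and 26 lower. Among those called in DP KO, Ly6c1 (a surface protein of mature T cells) rose by 3.70, Tor3a by 1.63 and Apobec3 (a cytidine deaminase that restricts retroviruses) by 0.76, and the guanylate-binding genes Gbp8 (-2.32) and Gbp4 (-0.64) were lower on the log2 scale. In CD4 KO, Gvin1 rose by 1.72, Apobec3 by 0.91, Lgals9 by 0.69 and Gbp5 by 0.67. Ifi27l2a (-1.30), Shisa5 (-0.94), Slfn2 (-0.81) and Sp110 (-0.73) were lower there on the log2 scale.

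Of 8 markers of maturing thymocytes, 3 were called higher (Il7r, S1pr1 and Itgb7) and 1 lower in DP KO, and 4 were called lower in CD4 KO, among them Ccr7, Zbtb7b and Cd40lg. Il7r, the interleukin-7 receptor chain, had 152, 169.8 and 123 CPM in DP KO replicates 1 to 3, against 10.3, 7.28 and 7.36 CPM in DP WT, and S1pr1, the exit receptor, had 8.49, 11.6 and 17.1 CPM in DP KO replicates 1 to 3, against 2.28, 2.56 and 1.56 CPM in DP WT. The values not called in DP were 1.45 for Klf2, -0.83 for Ccr7, -0.31 for Zbtb7b and 0.09 for Cd40lg on the log2 scale. Ccr7, the receptor that guides thymocytes into the medulla, had 46.99, 41.5 and 24.7 CPM in CD4 KO replicates 1 to 3, against 331, 362 and 337 CPM in CD4 WT, and Zbtb7b, the CD4 lineage factor, had 41.5, 32.97 and 20.04 CPM in CD4 KO replicates 1 to 3, against 389, 413 and 355 CPM in CD4 WT. In CD4, S1pr1 (-0.13), Klf2 (-0.08), Il7r (0.02) and Itgb7 (-0.06) were not called. The summed CPM of the 8 markers lay between 479 and 560 in DP KO and between 284 and 322 in DP WT, and between 1443 and 1658 in CD4 KO and between 2368 and 2596 in CD4 WT. No marker of the list was at 0 in any library. Unlike the 44 genes, this sum was not lowest in DP KO replicate 3, which had 491. The part of these shifts in the 44 genes was not tested.

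Markers of other cell types that a sort could carry over were also counted. The summed CPM of 5 markers of plasmacytoid dendritic cells, which make type I interferon, lay between 7.18 and 14.7 in DP KO and between 26.4 and 28.5 in DP WT, and between 41.8 and 57.9 in CD4 KO and between 173 and 203 in CD4 WT. In CD4 KO 3 of the 5 were called lower, with a median log2 fold change of -0.64 over the list, and in DP KO 1 of 4 tested was called, lower. Pacsin1 made up most of the CD4 sum, with 38.3, 38.7 and 30.6 CPM in CD4 KO replicates 1 to 3, against 178, 168 and 157 CPM in CD4 WT, a log2 fold change of -2.22 ± 0.10 (SE, adjusted p = 3.8e-07). The other calls were Klk1 (-0.82) and Ccdc162 (-0.64) in CD4 and Ccdc162 (-1.89) in DP, all lower in KO on the log2 scale. Siglech, the defining marker, had 2.23, 3.11 and 0.577 CPM in DP KO replicates 1 to 3, against 2.06, 1.22 and 0.937 CPM in DP WT, with a log2 fold change of 0.49 ± 0.55 (SE, adjusted p = 0.556). In CD4 cells Siglech had 8.60, 13.4 and 6.62 CPM in CD4 KO replicates 1 to 3, against 16.1, 13.95 and 8.01 CPM in CD4 WT, with overlapping groups and a log2 fold change of -0.41 ± 0.32 (SE, adjusted p = 0.362). No marker of this list was at 0 in any library.

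The summed CPM of 13 other myeloid markers lay between 14.3 and 25.7 in DP KO and between 21.3 and 31.4 in DP WT, and of the 12 tested only Lyz2 was called, lower in DP KO. In CD4 the sum lay between 23.5 and 65.8 in CD4 KO and between 27.2 and 66.4 in CD4 WT, and none was called by edgeR or passed an unadjusted p under 0.05 (0 of 13). Of the 5 erythroid markers none was called by edgeR in DP or CD4, and 1 was higher in DP KO at an unadjusted p under 0.05. Their sum lay between 67.8 and 331 CPM in DP KO and between 26.2 and 199 in DP WT, lowest in replicate 3 and highest in replicate 2 of each group, and in CD4 between 49.2 and 220 in CD4 KO and between 23.4 and 138 in CD4 WT. Of 6 B cell markers, 1 was called higher (Cd79b) and 1 lower (Ebf1) in DP KO, and Cd79b alone was called, higher, in CD4 KO. Their sum lay between 20.9 and 26.2 CPM in DP KO and between 16.4 and 21.2 in DP WT, and between 20.1 and 30.1 in CD4 KO and between 6.27 and 17.3 in CD4 WT. Ms4a1 and Ebf1 were at 0 in some libraries. The 9 stromal and epithelial markers summed to between 169 and 191 CPM in DP KO and between 146 and 151 in DP WT, and to between 169 and 187 in CD4 KO and between 195 and 215 in CD4 WT. Nearly all of that was Pecam1, which lay between 139.7 and 209.5 CPM over the 12 libraries, while the other 8 reached at most 7.85 CPM in sum and 6 of them were at 0 in some library. Of these markers Pecam1 was called higher and Epcam lower in DP KO, and Aire lower in CD4 KO. The part of these marker shifts in the values of the 44 genes was not tested.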

How the data were processed

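Poly(A) RNA of sorted thymocytes was sequenced as paired reads, per the labels' protocols. The authors deposited raw read counts per gene in 2 tables, 1 for DP and 1 for CD4, and the unit of every value used is a count. The submitters' processing notes name mm10, Subread 1.0.1, DESeq2 and R 4.1.5 without saying what each did. The aligner, the strand setting and the handling of reads with several matches are unknown here, so values of genes with close copies or overlapping neighbours are uncertain.

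Libraries were grouped by sample title. The descriptions of the CD4 samples name columns ending in DP, whereas the columns of the CD4 table end in CD4; these columns were matched to samples by title, genotype and replicate number, which the descriptions share. Each comparison used edgeR 4.0.16 (quasi-likelihood test with robust shrinkage, TMM, default low-count filter) in R 4.3.3 on the libraries of its own groups, and the interaction used all 12. P-values were Benjamini-Hochberg adjusted over all genes tested, and calls need an adjusted p under 0.05. SE is the log2 fold change over the square root of F. CPM were scaled by TMM over all 12 libraries, and RPKM divide group means by the exon length in the table. The functions were tested on simulated data. Python 3.11.15 with matplotlib 3.10.9 made the figures. Limits set by 3 counts cover counting error only.

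Replicate and batch numbers are equal, so the labels pair the libraries. Deviations from group means, over 5000 genes, correlated between same-numbered libraries at 0.06, -0.08 and 0.20 for DP KO and DP WT, 0.14, 0.26 and 0.37 for CD4 KO and CD4 WT, 0.27, 0.51 and 0.56 for CD4 KO and DP KO, and 0.33, 0.24 and 0.37 for CD4 WT and DP WT.

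The members and all lists were chosen with earlier results of these data known. Values per library are given for called members, up to 12 per direction by adjusted p, and for some members whose calls differ between DP and CD4. Oas1b, Xaf1, Usp18, Trim25, Rtp4 and Dtx3l, whose calls also differ, are given by log2 fold change only. Up to 4 called genes per direction were named from other lists. Other settings tried were leaving out each library, a joint model of all 12 libraries, no low-count filter or a mean count of at least 10, calls that also need a change of at least 1 on the log2 scale, and the replicate block. Other tools tried were limma-voom (limma 3.58.1) and, from DESeq2 1.42.0, its Wald test and its size factors within edgeR. Robust shrinkage was not part of the written design but a setting of the fit. Fits without it and with DP WT replicate 3 as the lone DP WT library were added after seeing the data. Some named results are not reported here.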

Additional observations from a re-analysis of the deposited data

Results flagged for a closer look

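For 30 of the 44 genes the KO effect differed between the cell types in edgeR's test of the difference itself, CD4 KO over WT against DP KO over WT, at an adjusted p under 0.05. Each value below is that difference on the log2 scale, and a negative value means that KO over WT was lower in CD4 than in DP. Of the signal factors, Irf7 had -2.21 and Irf9 -1.58. In the ISG15 system, Herc6 had -0.94. Of the sensors, Ifih1 had -2.15, Dhx58 -1.98 and Zbp1 -1.95. Of the synthetases and RNA decay genes, Oas1a had -2.04, Oas1b -1.41, Oas1g -2.27, Oas2 -4.30, Oas3 -2.59, Oasl2 -3.79 and Isg20 -1.63. In the IFIT family, Ifit3b had -2.51. Of the other effectors, Cmpk2 had -1.57, Bst2 -0.88, Samd9l -1.18, Ifi27 -0.76, Ifi35 -1.27, Rtp4 -2.41, Xaf1 -2.33 and Trim30a -1.61. In the PARP and DTX3L group, Parp9 had -1.03, Parp10 -0.999, Parp12 -0.999, Parp14 -1.40 and Dtx3l -0.72. Of the interferon-gamma-inducible GTPases, Ifi47 had -1.30, Irgm1 -1.39 and Gbp2 -0.79. Of these 30, 23 were called whichever library was left out, 24 were called with the replicate block, and 11 with DP WT replicate 3 alone for DP WT.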

How the results depend on the processing

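No called member changed sign under any alternative tried, and none was called in the opposite direction. In DP, the number of members higher in KO was 5 with the replicate block, 12 with a minimum absolute log2 fold change of 1, from 8 to 34 with a library left out, and 0 with DP WT replicate 3 alone for DP WT. It was between 20 and 30 under the other tools, filters and fits, against 22 in the report. Of all 16776 genes tested in DP, 2816 were higher with the replicate block and 856 with the minimum fold change. The member lower in DP KO, Stat2, gave a count of 0 with no low-count filter, with the minimum fold change and with DP WT replicate 3 alone, and from 0 to 1 with a library left out. Without robust shrinkage of the spread, 30 members were higher in DP KO, 30 were lower in CD4 KO (26 in the report) and the interaction was called for 36 (30 in the report), all lower. Of all genes tested, 2805 of 16776, 3223 of 17316 and 2467 of 18431 were called in these directions. In CD4, members lower in KO numbered 13 in 1 model over all libraries and 4 with the minimum fold change. Over all genes tested, 3197 of 18431 and 968 of 17316 were lower in these settings. Members higher in CD4 KO numbered 3 by the DESeq2 Wald test, by limma-voom and with no low-count filter, 2 with the replicate block, 0 in 1 model over all libraries and with the minimum fold change, and from 0 to 3 with a library left out. Of all genes tested, 3681 of 17316 were higher by DESeq2, 3696 of 17316 by limma-voom and 3863 of 35036 with no filter. In KO cells, members higher in CD4 than in DP numbered 30 with the replicate block and 5 with the minimum fold change, and from 5 to 14 with a library left out. Of all 16910 genes tested in KO cells, 3519 were higher with the block and 1379 with the minimum fold change. Members lower there numbered 2 with the replicate block, 1 with no low-count filter and from 0 to 2 with a library left out. The interaction was called lower for 11 members with DP WT replicate 3 alone, and the CD4 rise in WT cells held for 36 to 44 members throughout. The replicate block moved no other count of calls by over 1.5 times. The minimum fold change removes calls by its construction; for the other shifts the cause was not tested. A lone DP WT library is assumed to vary like the other groups. Depth limits 3 members most: their lowest libraries held 4 counts for Ifi44 (DP WT replicate 1), 5 for Oas1g and 14 for Ifit3b (both DP WT replicate 3).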
